A study of Mus musculus with 4 samples.

Results

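The response of interleukin-4 (IL-4) macrophages to interleukin-1α (IL-1α) was read from 2 of the 4 arrays of the series. These were the array of IL-4 macrophages given IL-1α and the array of IL-4 macrophages given vehicle, chosen by their labels, and the response is the first minus the second. The cells were macrophages grown from bone marrow of the mouse strain C57BL/6N in medium with 10 ng/mL of the growth factor M-CSF and harvested on day 9. IL-4 at 20 ng/mL for 48 h gave the group labelled M2, and interferon-γ at 10 ng/mL for 48 h gave the group labelled M1. IL-1α was given at 10 ng/mL for 24 h, and the labels do not say whether IL-4 or interferon-γ was still present during that time. M1 and M2, each with vehicle or with IL-1α, make 4 groups, each of which has 1 array and no replicate, so no difference below has a standard error or a p-value. The labels do not state how many mice or cultures stand behind an array. RNA came from whole cultures, so more RNA per cell and more cells carrying an RNA cannot be told apart.

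IL-1α is a cytokine of the interleukin-1 family that is released by damaged cells and also made by activated macrophages. It binds the receptor IL1R1 with its co-receptor IL1RAP, and the adaptor MYD88, the IRAK kinases and the ubiquitin ligase TRAF6 pass the signal on to the transcription factor NF-κB and to MAP kinases. NF-κB is held in the cytoplasm by inhibitor proteins of the IκB family, whose own genes are NF-κB targets, so that the pathway limits itself. IL-4 acts through another route, the transcription factor STAT6, and gives macrophages a profile of tissue repair and allergy with arginase, the mannose receptor and the chemokines of the Ccl17 and Ccl22 kind.

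Levels are log2 signals from the RMA procedure and differences are in log2 units, so 1 unit is 2-fold and 0.58 is about 1.5-fold. A gene was counted when at least 1 of the compared arrays reached a floor of 7.617, the median level of all 19938 genes over the 4 arrays. In a check that was added after the data were seen, 1194 olfactory and vomeronasal receptor genes, which macrophages are not known to use, had a median of 4.98 and a 95th percentile of 6.86 on the M2 vehicle array, and 19 of them reached the floor on an M2 array. Because 1 array at the floor was enough, 185 of the 10284 genes measured in the M2 pair entered through the IL-1α array alone and 242 through the vehicle array alone. For such genes the difference is fixed in sign by the filter. Counts and medians of a gene list below cover its members at the floor, not all its members. Unless said otherwise, shares and medians given for all genes cover the 10284 genes at the floor in the M2 pair. The lists were chosen with earlier results of these data known, so their counts and shares describe the response and are no independent support for it.

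The M2 label was compared with a list of genes known to mark it. That list was chosen with earlier results of these data known, so the comparison is a description and no independent check. Of 28 measured IL-4 hallmark genes, 26 reached the floor on each M2 array and 11 on each M1 array. The arginine-degrading enzyme Arg1 read 12.48 in M2 with vehicle and 12.41 with IL-1α, against 6.75 in M1 with vehicle. Mrc1, the mannose receptor, read 13.30 and 13.27 in M2, against 7.91 in M1 with IL-1α. Some members of the list went the other way with vehicle. Among them were Tgm2 (11.45 in M2 and 13.10 in M1), Il4ra (10.98 and 12.02) and Klf4 (9.81 and 10.05). Of 15 macrophage core genes, 14 reached the floor with vehicle and 13 with IL-1α in M2, the gene between them being the fractalkine receptor Cx3cr1 (7.72 and 7.59). The 5 genes given as markers of the response were all higher with IL-1α in M2: the itaconate-making enzyme Acod1, the neutrophil chemokine Cxcl2, the C-type lectin Clec4e, the cytokine Il1b and the T cell chemokine Ccl17. They were picked for this response in these arrays, so their differences describe it and do not support it.

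At least 1.5-fold higher with IL-1α in M2 were 90 of 10284 genes (0.875%), and 0 genes were 1.5-fold lower. Of the 90, 36 were at least 2-fold higher (0.35% of the genes measured) and 54 lay between 1.5-fold and 2-fold. The asymmetry was present at smaller sizes as well. At 1.3-fold, 260 genes were higher and 32 lower in M2, and at 1.2-fold, 692 were higher and 162 lower. In the M1 pair, whose arrays are not those of the M2 pair, 2 genes of 10012 (0.02%) were 1.5-fold higher and 4 (0.04%) were 1.5-fold lower. At 1.3-fold the M1 pair had 24 higher and 27 lower. The median difference over the 10284 genes at the floor was 0.05 in M2, and 69.3% of them were above 0. Without a floor, over 19938 genes, the median was 0.007. After a further quantile normalisation the median of the genes at the floor was 0.008. The 1.2-fold and 1.3-fold counts were not repeated there, so the part of a small shift of the genes at the floor in them was not tested.

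**Figure D1:**
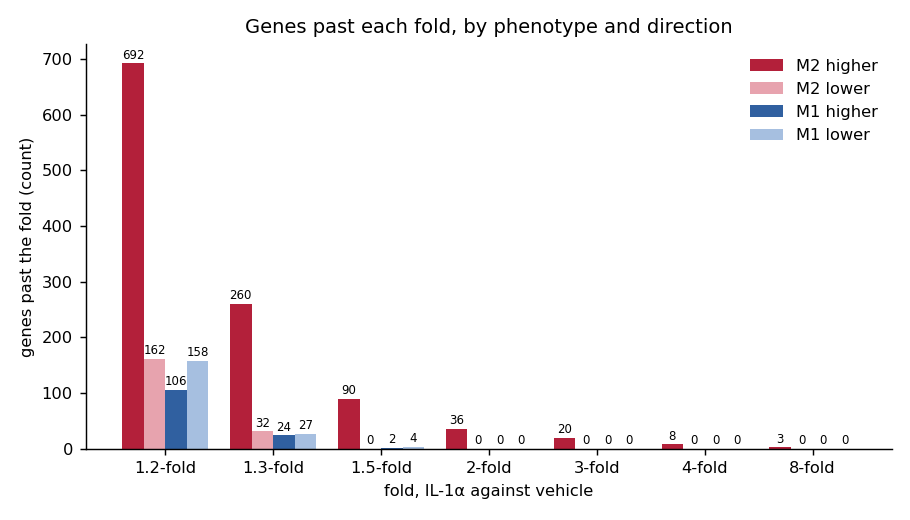
Number of genes at or past each fold with IL-1α against vehicle (y axis, count of genes at the floor), for folds from 1.2 to 8 (x axis), in M2 and M1 and in each direction. The dark red bars (higher in M2) run from 692 genes at 1.2-fold to 3 genes at 8-fold, and no M2 gene is lower at 1.5-fold or beyond.

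**Figure D2:**
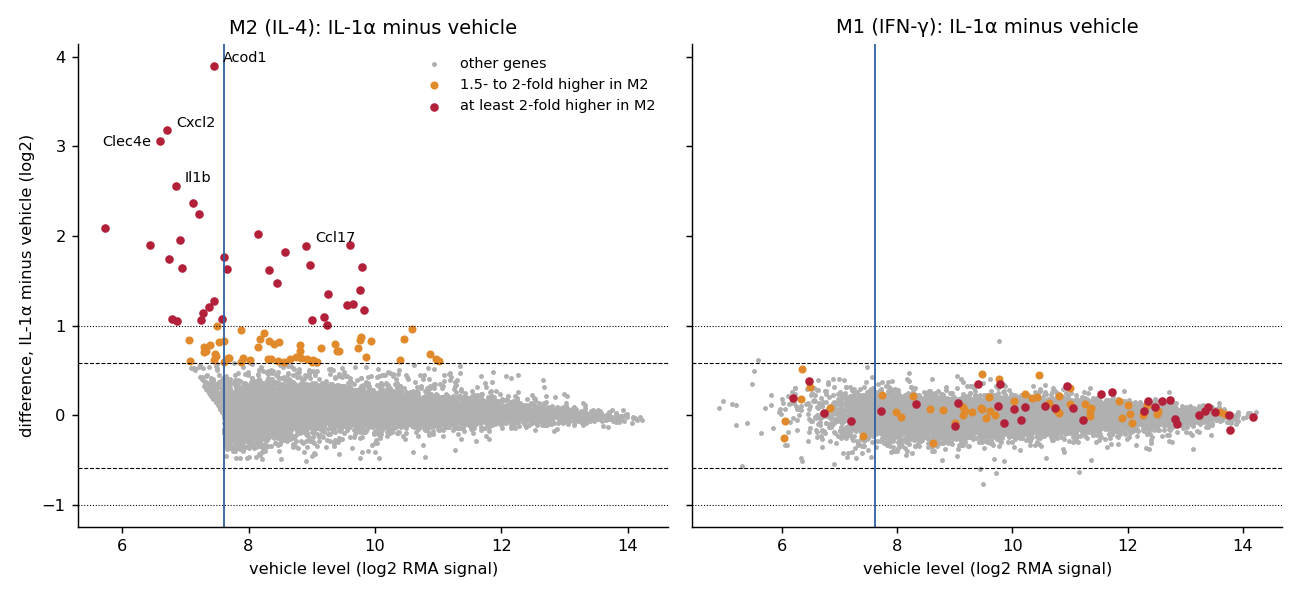
Difference with IL-1α (y axis, log2) against the vehicle level (x axis, log2 RMA signal) for the 10284 genes at the floor on an M2 array, in M2 at left and in M1 at right. Dark red points are the 36 genes at or past 2-fold and orange points the 54 genes between 1.5-fold and 2-fold; the vertical line is the floor of 7.617, dashed lines are 1.5-fold and dotted lines 2-fold. In M1 none of the coloured genes reaches the upper dashed line.

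How much of a difference was measured on both sides depended on the vehicle level. Of the 90 genes, 59 were at the floor on both M2 arrays, namely 18 of the 36 and 41 of the 54. The other 31 were under the floor with vehicle, so their fold has an uncertain base. Set against the floor itself, 18 of these 31 were still at least 1.5-fold higher and 9 at least 2-fold. With the base at the floor, Acod1 was at 3.73, Cxcl2 at 2.28, Clec4e at 2.04, the fatty acid receptor Gpr84 at 1.87, the prostaglandin synthase Ptgs2 at 1.85 and Il1b at 1.79. The guanylate-binding protein Gbp5 was at 0.20, Fas at 0.24 and the integrin Itgal at 0.07, which leaves most of their printed difference below the floor.

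The promoters of the higher genes were searched for the binding motifs of the pathways above, in the 250 bases before each start site in RefSeq sequences of build GRCm38.p6, on both strands. An entry was found for 73 of the 90 genes. Those without an entry were Vcam1, Ccl5, Cd40, Nfkbiz, Cxcl16, Ehd1, Relb, Zbtb10, Malt1, Skil, Pstpip2, Grk3, Itgal, Ccl24, P3h2 and both small nucleolar RNAs. Of the 73, 19 had a match to the κB consensus to which NF-κB dimers bind, against 881 of 8349 genes at the floor (10.6%) and 2225 of all 27025 genes with an entry (8.23%). The share was 25.8% of the 31 genes with an entry past 2-fold and 26.2% of the 42 between 1.5-fold and 2-fold. The core of the interferon-stimulated response element, searched as GAAA, any 2 bases and GAAA, was found in 10 of the 73 (13.7%), against 3.21% of genes at the floor and 3.46% of all. The motif TGANTCA, bound by AP-1, was found in 10 (13.7%), against 5.34% and 7.82%. The STAT6-type palindrome, searched as TTC, any 4 bases and GAA, was found in 9 (12.3%), against 5.59% and 6.76%. A match is a string of letters in a window and not a shown site, genes with several start sites have more windows, and no test was made.

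Sequences of 5 promoters are shown because they carry the kinds of match found, each printed 5′ to 3′ on the gene's strand and ending at the base before the start site, with every match in capitals. Cxcl2 (chr5:90903649-90903898, plus strand) holds overlapping κB matches from 97 to 87 bases before the start. H2-M2 (chr17:37483555-37483804, minus strand), a nonclassical MHC class I gene, holds a pair of κB matches. Nfkbie (chr17:45555450-45555699, plus strand), the gene of IκBε, holds a TGANTCA match and then a κB match. Gbp5 (chr3:142496684-142496933, plus strand) holds a match to the interferon element core on the opposite strand and then a κB match. Ccl17 (chr8:94810203-94810452, plus strand) holds a match to the STAT6-type palindrome and none of the others in this window.
Cxcl2: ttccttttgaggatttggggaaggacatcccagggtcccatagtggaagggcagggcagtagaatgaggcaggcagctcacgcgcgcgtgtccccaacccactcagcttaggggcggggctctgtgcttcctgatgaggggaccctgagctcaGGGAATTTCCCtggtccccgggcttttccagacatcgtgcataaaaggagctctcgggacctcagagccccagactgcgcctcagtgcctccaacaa
H2-M2: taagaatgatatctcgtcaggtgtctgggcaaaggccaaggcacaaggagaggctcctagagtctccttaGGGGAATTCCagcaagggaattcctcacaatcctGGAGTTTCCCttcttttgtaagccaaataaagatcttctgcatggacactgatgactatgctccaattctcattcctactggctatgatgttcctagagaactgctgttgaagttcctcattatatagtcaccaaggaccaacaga
Nfkbie: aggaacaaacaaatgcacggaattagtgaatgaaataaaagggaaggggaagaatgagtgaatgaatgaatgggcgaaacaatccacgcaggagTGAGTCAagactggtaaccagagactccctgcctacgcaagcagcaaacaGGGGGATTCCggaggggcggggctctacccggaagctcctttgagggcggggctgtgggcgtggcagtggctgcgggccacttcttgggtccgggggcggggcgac
Gbp5: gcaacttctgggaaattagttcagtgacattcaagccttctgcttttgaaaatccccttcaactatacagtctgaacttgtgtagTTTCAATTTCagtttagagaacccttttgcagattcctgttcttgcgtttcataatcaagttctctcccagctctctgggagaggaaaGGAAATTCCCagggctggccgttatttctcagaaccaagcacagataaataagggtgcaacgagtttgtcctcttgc
Ccl17: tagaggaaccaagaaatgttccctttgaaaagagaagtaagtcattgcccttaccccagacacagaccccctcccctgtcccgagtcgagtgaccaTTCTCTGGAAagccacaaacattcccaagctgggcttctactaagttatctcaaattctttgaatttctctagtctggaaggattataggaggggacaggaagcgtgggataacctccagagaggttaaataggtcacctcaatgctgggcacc

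No match to any of the 4 motifs was found in this window for Acod1, Clec4e and Il1b. Other κB matches were in Nfkbia, Cxcl10, Zc3h12c, Gpr132, Nlrp3, Fnbp1l, Tnfaip3, Casp4, Pde4b, Tlr2, Nfkb2, Ifit2, Csf1 and Tnip1. Matches to the interferon element core were in Gbp5, Ifi205, Cxcl10, Edn1, Ifit3, Ifit1, Apol7c, Rsad2 and Slfn8, and in 1 predicted gene. Cxcl10 and Gbp5 had both kinds.

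In the IL-1 family and signalling list, the ligand genes Il1b and Il1a were the 2 of 21 genes at the floor that were past 1.5-fold. That is 9.52%, against 0.875% of all genes, and the list median was 0.11. Il1b and Il1a entered through the IL-1α array alone, so their count is a description. Il1b read 6.85 with vehicle and 9.41 with IL-1α in M2, and 11.73 and 11.99 in M1. Il1a read 6.92 and 8.88 in M2, and 11.54 and 11.77 in M1. Both were under the floor in M2 with vehicle and below the M1 arrays with IL-1α. The related ligand gene Il18 was at 0.08, and Il33 (5.61 and 5.37) did not reach the floor in M2. The co-receptor gene Il1rap read 8.90 and 9.34, the kinase gene Irak2 9.60 and 10.02, and the kinase gene Map3k8 9.42 and 9.87, all short of 1.5-fold. Myd88 was at a difference of 0.19, Traf6 at 0.14, Irak1 at 0.06, the inhibitory kinase-like gene Irak3 at 0.08 and the receptor antagonist Il1rn at 0.09. The decoy receptor gene Il1r2 (5.91 and 5.92) did not reach the floor in M2.

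NF-κB subunits and their inhibitors were often among the higher genes. Of 17 members measured, 7 passed 1.5-fold upward (41.2%, against 0.875% of all genes) and 16 were above 0 (69.3% of all genes were), with a median of 0.44 in M2 and 0.09 in M1. Among the IκB genes, Nfkbie read 8.58 with vehicle and 10.40 with IL-1α in M2, and 11.05 and 11.14 in M1. Nfkbia, the gene of IκBα, read 9.80 and 11.45 in M2, and 12.35 and 12.51 in M1. Each of these inhibitors was more than 3-fold higher in M2, and neither reached its M1 vehicle level. The nuclear IκB gene Nfkbiz read 7.45 and 8.72, and the related coactivator Bcl3 9.74 and 10.49. Nfkbiz was under the floor with vehicle and entered through the IL-1α array alone. Of the 4 subunit genes measured in this list, those of the alternative pathway had the larger differences. Relb read 8.24 and 9.15, and Nfkb2 9.94 and 10.76. Nfkb1 was not among the 4. Rel was at 0.44 and Rela at 0.19. Malt1, a protease that links receptors to the IκB kinase, read 10.87 and 11.55 in M2 and 10.47 and 10.92 in M1, the only member of this list with a difference above 0.4 in both phenotypes. The kinase genes Ikbkb (-0.02) and Ikbkg (0.11) were near their vehicle level.

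Genes that dampen or accompany NF-κB activity followed. Of 24 feedback and target genes, 9 passed 1.5-fold upward (37.5%, against 0.875% of all genes), with a median of 0.48. The RNA-degrading regulator Zc3h12a, known as regnase-1, read 9.19 with vehicle and 10.29 with IL-1α in M2, and its relative Zc3h12c, which was in no list, 9.76 and 11.16. The ubiquitin-editing enzyme Tnfaip3, known as A20, read 9.78 and 10.64, and its partner Tnip1 8.65 and 9.29. Among survival genes, Birc3 read 9.41 and 10.12, and the caspase-8 regulator Cflar 9.02 and 9.64, with differences of 0.55, 0.58 and 0.73 on its 3 probe sets. The adhesion molecule Icam1 read 9.83 with vehicle and was 1.17 higher with IL-1α. The signal adaptor Traf1 (6.87 and 7.92), the protein kinase C substrate relative Marcksl1 (7.06 and 7.90) and the adhesion molecule Vcam1 (6.75 and 8.49) were under the floor with vehicle. These 3 of the 9 entered through the IL-1α array alone, so the filter fixed their sign. Zfp36, an RNA-destabilising regulator, was at -0.01 and the early gene Ier3 at -0.02, so not every member of this list was higher.

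The chemokines past the threshold were inflammatory ones and ones that IL-4 is known to induce. Of 14 CXC chemokines measured, 6 were at the floor. Of these, 3 were past 1.5-fold (50%, against 0.875% of all genes), and all 3 were past 2-fold. The median of 0.67 covers the 6 at the floor, of which Cxcl2 and Cxcl10 entered through the IL-1α array alone. It was 0.08 over all 14 without a floor. Cxcl2 read 6.72 with vehicle and 9.90 with IL-1α in M2, and 8.33 and 8.46 in M1, so that its level with IL-1α in M2 was above both M1 arrays. The interferon-induced T cell chemokine Cxcl10 read 6.95 and 8.59 in M2, and 13.77 and 13.61 in M1. Cxcl16, a membrane-bound chemokine that also takes up oxidised lipoprotein, read 9.55 and 10.78. Among CC chemokines, 4 of the 14 at the floor were past 1.5-fold (28.6%, against 0.875% of all genes). Ccl17 read 8.91 and 10.80 in M2, and 7.20 and 7.14 in M1. Ccl22, which shares the receptor CCR4 with Ccl17, read 8.97 and 10.65 in M2, and 9.00 and 8.88 in M1. Ccl24, an eosinophil chemokine, read 11.01 and 11.61 in M2, and 6.83 and 6.90 in M1. These 3 IL-4-linked chemokines had their highest reading of the 4 arrays in M2 with IL-1α. Ccl5 read 8.45 and 9.92 in M2, far under its M1 level of 14.17. Ccl4 and Ccl12 were just short of the threshold at 0.51 each, whereas Ccl3 (0.22), Ccl2 (0.10), Ccl7 (0.01) and Ccl9 (0.02) differed less.

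Beyond these chemokines, the IL-4 profile was close to its vehicle state. Of 26 IL-4 hallmark genes at the floor, 3 were 1.5-fold higher (11.5%, against 0.875% of all genes), all of them chemokines. None was 1.5-fold lower, and the median was 0.05, the same as over all genes at the floor. The transcription factor Irf4, which acts downstream of IL-4, read 10.49 and 10.94. The feedback regulator Cish read 10.93 and 11.28. The lowest of the 26 was the transcription factor Klf4, at 9.81 and 9.62.

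Of 16 cytokine and growth factor genes at the floor, 4 were past 1.5-fold (25%, against 0.875% of all genes). Tnf read 9.60 with vehicle and 11.50 with IL-1α in M2, and 12.73 and 12.90 in M1. Edn1, which encodes the vasoconstrictor peptide endothelin-1, read 8.32 and 9.94 in M2, and 6.74 and 6.76 in M1. Csf1, the gene of M-CSF, read 9.37 and 10.16 in M2, and 9.01 and 8.92 in M1. The death receptor Fas read 6.79 and 7.86, under the floor with vehicle. Edn1 and Csf1 had their highest reading in M2 with IL-1α, unlike Tnf. Il6 (5.05 and 5.55), Il12b (6.17 and 6.15), Il10 (6.14 and 6.51) and Csf3 (6.84 and 6.90) did not reach the floor in M2. Il27, the gene of a subunit of interleukin-27, was at -0.40 and the angiogenic factor Vegfa at -0.20, neither past the threshold.

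**Figure D3:**
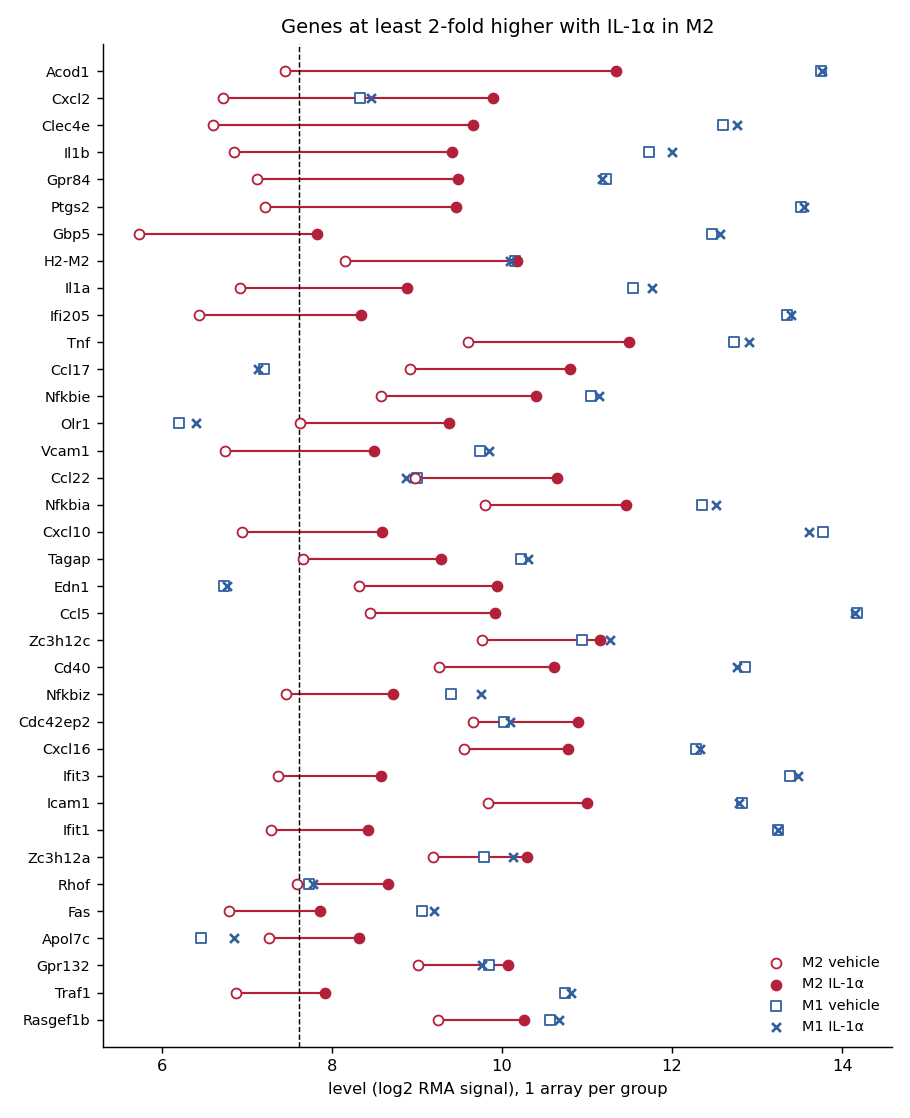
Level on each of the 4 arrays (x axis, log2 RMA signal, 1 array per group) for the 36 genes past 2-fold with IL-1α in M2, ordered by that difference. Red circles are M2 (open vehicle, filled IL-1α), blue squares M1 vehicle and crosses M1 IL-1α, and the dashed line is the floor. Open circles of 18 genes lie under the floor, and the M1 symbols of a gene lie close together.

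Lipid mediators and metabolite receptors included several of the larger differences. Of 13 eicosanoid genes, 3 were past 1.5-fold (23.1%, against 0.875% of all genes), of which Ptgs2 entered through the IL-1α array alone. The 3 act at separate points of prostaglandin E2 synthesis and signalling, and whether they changed together was not tested. The phospholipase Pla2g4a, which frees arachidonic acid, read 9.08 and 9.67. Ptgs2, which converts it, read 7.22 and 9.46 in M2, and 13.51 and 13.55 in M1. The prostaglandin E2 receptor Ptger4 read 8.18 and 9.03, while the receptor Ptger2 was at -0.29 and the synthase Ptges at 0.26. Of 16 metabolite receptors, 2 were past 1.5-fold (12.5%, against 0.875% of all genes), and both were past 2-fold. These were Gpr84 (7.12 and 9.48 in M2, 11.22 and 11.17 in M1) and the lipid- and acid-sensing receptor Gpr132 (9.01 and 10.07 in M2, 9.85 and 9.77 in M1). Among 20 scavenger and lipid genes, only the oxidised lipoprotein receptor Olr1 passed (5%, against 0.875% of all genes). It read 7.62 and 9.38 in M2, and 6.20 and 6.40 in M1. The cholesterol hydroxylase Ch25h (0.57) and the oxysterol receptor Nr1h3 (0.54) lay just under the threshold.

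The itaconate pathway was represented by 1 enzyme. Acod1 diverts the citrate cycle intermediate cis-aconitate to itaconate, and it read 7.45 with vehicle and 11.35 with IL-1α in M2, and 13.75 and 13.76 in M1. Of 15 genes at the floor in the citrate cycle list, Acod1 alone was past 1.5-fold (6.67%, against 0.875% of all genes). The other 14 lay between -0.16 (Idh1) and 0.23 (Pcx). Of 19 glycolysis and hypoxia genes, 23 respiratory chain genes, 20 sterol synthesis genes and 27 cell cycle genes, 0 were past 1.5-fold in either direction. Of all genes, 0.875% were 1.5-fold higher and 0% lower, so a count of 0 does not set lists of this size apart. The list medians were 0.02, 0.06, 0.12 and 0.06, in that order. The cystine transporter Slc7a11, at 10.39 and 11.01, was the sole pass among 21 antioxidant, iron and thiol genes (4.76%, against 0.875% of all genes).

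Receptors of innate recognition were mostly near their vehicle level. Of 14 C-type lectins, 1 was past 1.5-fold (7.14%, against 0.875% of all genes). It was Clec4e, which recognises mycobacterial glycolipid and dead cells, and it entered through the IL-1α array alone. Clec4e read 6.60 and 9.66 in M2, and 12.60 and 12.76 in M1. Its neighbours in function Clec4n and Clec4d were at 0.45 and 0.26, and the β-glucan receptor Clec7a at -0.11. Of 22 Toll-like, NOD-like and inflammasome genes, 3 were past the threshold (13.6%, against 0.875% of all genes), all between 1.5-fold and 2-fold. Nlrp3, the inflammasome sensor, read 7.51 and 8.51, under the floor with vehicle. Tlr2, a receptor for bacterial lipoprotein, read 7.62 and 8.44 in M2 (just under the floor with vehicle), and 9.48 and 9.93 in M1. Casp4, the sensor of intracellular endotoxin also called caspase-11, read 9.76 and 10.59. Tlr4, Tlr7, Tlr8 and Tlr9 were between -0.20 and -0.08. Among 19 costimulatory and adhesion genes, 5 passed (26.3%, against 0.875% of all genes). Of these, Cd40 read 9.26 and 10.61 and the receptor Slamf1 9.85 and 10.50. Vcam1, Icam1 and Itgal complete the 5, and Vcam1 and Itgal entered through the IL-1α array alone.

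Interferon-linked genes gave an uneven set. Of 25 type I interferon-stimulated genes at the floor, 6 were past 1.5-fold (24%, against 0.875% of all genes) and 23 were above 0 (69.3% of all genes were), with a median of 0.20 in M2 and 0.01 in M1. The antiviral genes Ifit3 (7.37 and 8.57), Ifit1 (7.28 and 8.42) and Ifit2 (7.52 and 8.34) were under the floor with vehicle. They belong to 4 of the 25 that entered through the IL-1α array alone. The filter fixed the sign of these 4, so the counts of this list are a description. Cmpk2 read 8.49 and 9.30, the antiviral enzyme Rsad2 9.44 and 10.15, and the schlafen gene Slfn8 8.47 and 9.08. Each of these 6 genes read between 11.90 and 13.68 in M1 with vehicle, well above M2 with IL-1α. Others of the list differed little: Usp18 was at 0.08, Zbp1 at 0.07, Isg20 at 0.01 and Oas3 at -0.12. Interferon-β itself, Ifnb1 (5.82 and 5.80), did not reach the floor in M2. Of 12 interferon-γ response genes at the floor, 4 were past 1.5-fold (33.3%, against 0.875% of all genes). These were Gbp5, Cxcl10, Cd40 and Socs3, and all but Cd40 entered through the IL-1α array alone. Gbp5 (5.73 and 7.82) was the only one of 5 guanylate-binding and related GTPase genes past the threshold (20%, against 0.875% of all genes). Gbp3 was at 0.38 and Gbp7 at 0.34. The DNA sensor family gene Ifi205 read 6.44 and 8.34. Probe sets within the Ifit, Gbp and Ifi200 families can cross-hybridise, which makes values uncertain by member.

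Of 26 immediate early and AP-1 genes at the floor, 0 were past 1.5-fold at 24 h, against 0.875% of all genes. At a share this low, a count of 0 does not set a list of this size apart from all genes. The list median was 0.06, against 0.05 over all genes. Fos was at -0.14, Jun at 0.03, Junb at 0.26 and Egr1 at -0.03. Of 23 genes of the JAK, STAT, IRF and SOCS list, Socs3 alone passed (4.35%, against 0.875% of all genes), at 0.78. Its probe sets disagreed: 1 read 7.37 and 8.77 (difference 1.40) and the other 7.42 and 7.58 (0.17). Stat5a was at 0.44 and Irf1 at 0.26. H2-M2 (8.15 and 10.17 in M2, 10.15 and 10.09 in M1) was the only gene of 14 in the MHC class I list past the threshold (7.14%, against 0.875% of all genes). Its level with IL-1α in M2 was close to both M1 arrays. The 8 MHC class II genes at the floor lay between -0.14 and 0.20.

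**Figure D4:**
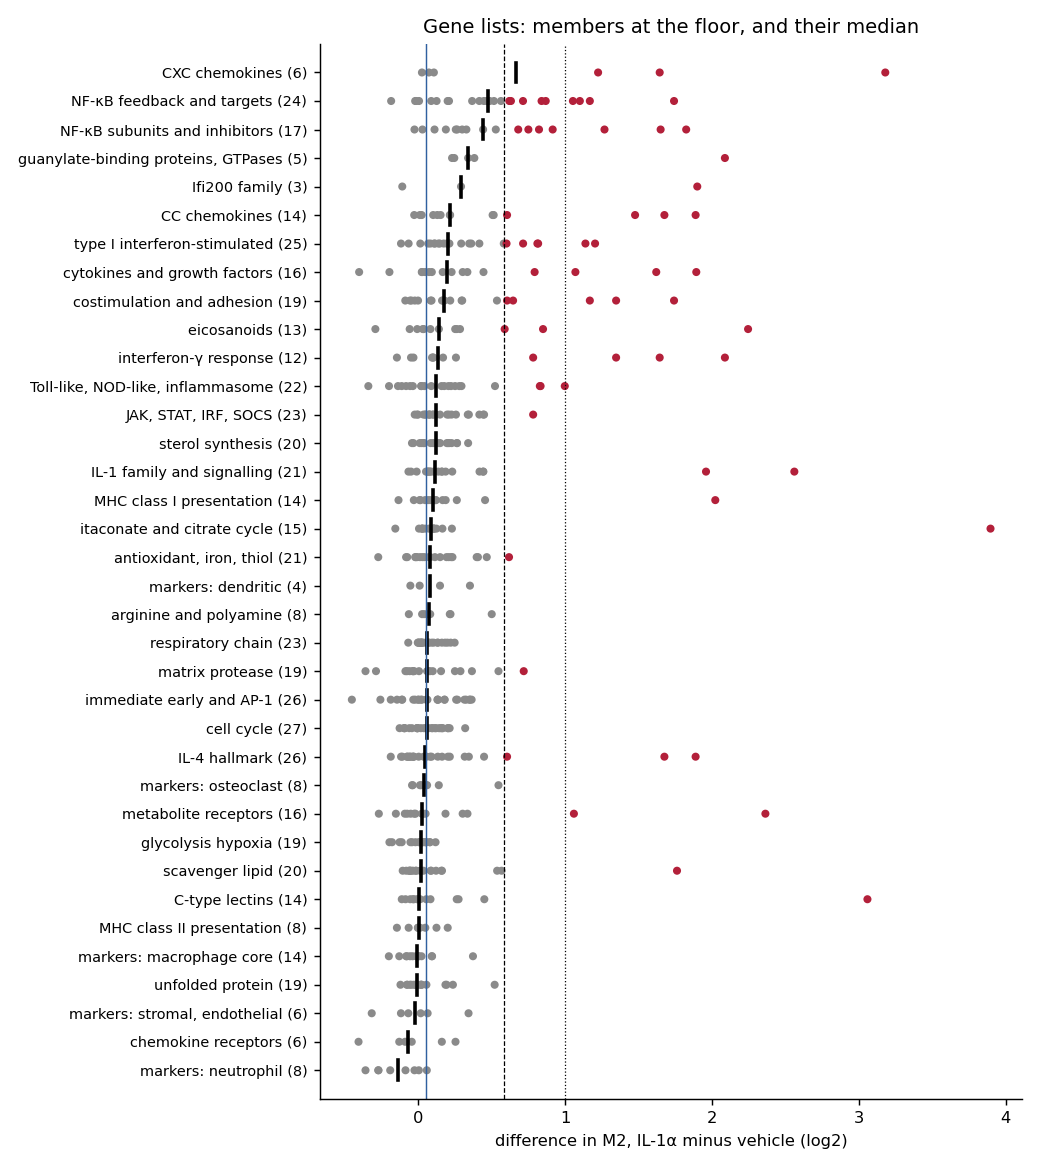
Differences with IL-1α in M2 (x axis, log2) for the members at the floor of each gene list with at least 3 such members (rows, number of members in brackets), ordered by list median. Red points are at least 1.5-fold higher and black bars are list medians. The blue line is the median of all genes at the floor (0.05), and dashed and dotted lines are 1.5-fold and 2-fold. The 5 markers of the response are left out, and among the lists drawn the CXC chemokines and both NF-κB lists have the 3 highest medians, at 0.67, 0.48 and 0.44. Of the members behind these medians, 2 of 6, 3 of 24 and 1 of 17 entered through the IL-1α array alone, and the order of the lists was not tested.

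Of the 90 genes, 35 belonged to no list. Tagap read 7.66 with vehicle and 9.29 with IL-1α in M2. The Cdc42 effector Cdc42ep2 read 9.66 and 10.89 in M2 and 10.02 and 10.09 in M1, the small GTPase Rhof 7.59 and 8.66, and the Ras exchange factor Rasgef1b 9.25 and 10.25. The endosome-recycling protein Ehd1 (10.58 and 11.54), the membrane-bending protein Fnbp1l (7.89 and 8.83) and the syntaxin Stx11 (8.82 and 9.60) lay between 1.5-fold and 2-fold. The apolipoprotein L gene Apol7c read 7.25 and 8.32. Pstpip2, a membrane-bending protein known for a mouse autoinflammatory bone disease, read 8.35 and 8.98.

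The remaining moderate genes covered transport, signalling and differentiation. Aldh1a2, which makes retinoic acid, read 8.41 and 9.20 in M2, and 6.04 and 5.79 in M1. The hexose transporter Slc2a6 read 10.46 and 11.32, and the zinc transporter Slc30a4 10.96 and 11.59 in M2 against 8.06 and 8.04 in M1. The cyclic AMP phosphodiesterase Pde4b read 8.32 and 9.15. The AMP-activated kinase subunit Prkaa2 read 7.90 and 8.55, and the TGF-β pathway repressor Skil 7.69 and 8.32. The calcium channel Orai2 read 8.57 and 9.16, with differences of 0.53 on its brighter probe set and 0.64 on the other. The membrane-anchored protease Mmp14 read 7.32 and 8.04, under the floor with vehicle. Phldb1 (0.76), Cdc14a (0.65), Zfp330 (0.64), Cep43 (0.64), Sowahc (0.62), Abtb2 (0.62), Trim13 (0.60) and Gsap (0.60) complete the moderate genes outside the lists that were at the floor with vehicle. Ryk (0.71), Gpr85 (0.69), Zbtb10 (0.76), Grk3 (0.62) and P3h2 (0.59) were under it. At the threshold itself, the 3 genes just inside were Orai2, a long non-coding RNA and P3h2 (0.59 each), and the 3 just outside were Glrx3 (0.58), Mx1 (0.58) and Sema4c (0.57).

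**Figure D5:**
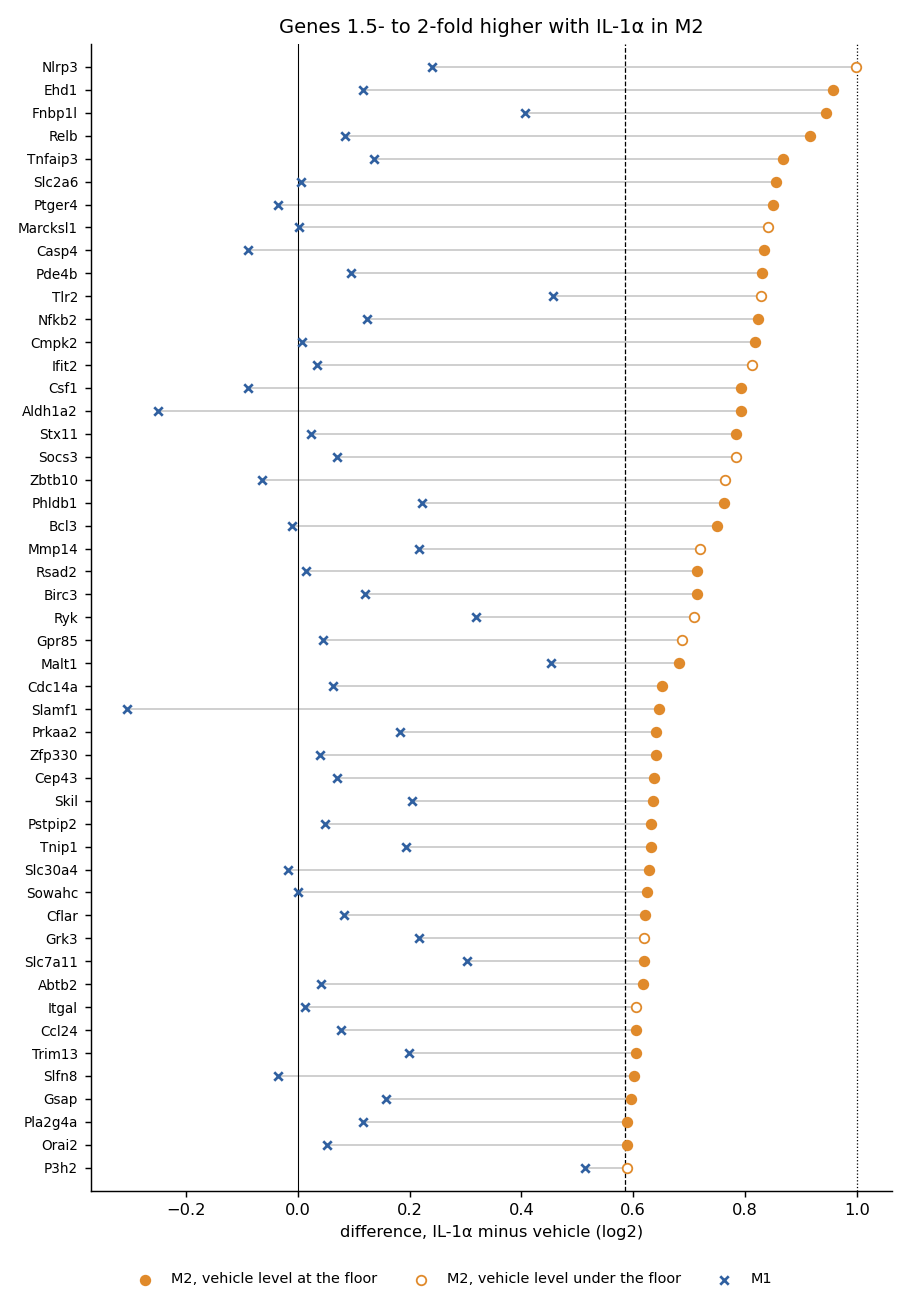
Difference with IL-1α (x axis, log2) for the named genes between 1.5-fold and 2-fold higher in M2, ordered by that difference. Orange circles are M2 (filled where the vehicle level was at the floor, open where it was under it) and blue crosses are M1; the dashed line is 1.5-fold and the dotted line 2-fold. Every M1 cross lies left of the 1.5-fold line, with P3h2 the nearest at 0.51.

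No gene was 1.5-fold lower with IL-1α in M2, and the lowest differences were close to each other. The histone genes H3c4 (8.52 and 8.03) and H2bc8 (9.76 and 9.27), the Wnt receptor Fzd9 (8.22 and 7.73), the adhesion regulator Cytip (10.06 and 9.58), the arrestin-like Arrdc3 (10.80 and 10.33) and the transcription factor Klf2 (9.01 and 8.56) were among the 10 lowest named genes. The chemokine receptor Cxcr4 read 9.80 and 9.40. These differences lay between -0.49 and -0.41 and each rests on 1 array a side.

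The 90 genes were then read in the M1 pair. Its arrays had a part in choosing them only through the floor, which is a median over all 4 arrays. None of the 90 was 1.5-fold higher with IL-1α in M1. Their M1 differences ran from -0.31 (Slamf1) to 0.51 (P3h2) with a median of 0.07, and 71 of the 90 (78.9%) were above 0, against 49.0% of all genes measured in the M2 pair. For the 36 genes the M1 median was 0.08, with 27 above 0, and for the 54 it was 0.07, with 44 above 0. The largest M1 differences among named genes were in P3h2, Tlr2 (0.46), Malt1 (0.45), Fnbp1l (0.41), Apol7c (0.39), Nfkbiz (0.35), Zc3h12a (0.34) and Zc3h12c (0.33). P3h2 and Apol7c were under the floor on both M1 arrays, and only 79 of the 90 reached it on at least 1 M1 array. Ccl5 (14.17) and Acod1 (13.75) were near the top of the M1 vehicle array (14.40). Whether such levels limited the M1 differences was not tested. The difference between the responses has no test in this design, since 4 arrays leave no degrees of freedom for it.

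Markers of other cells were read beside these results, and their part in them was not tested. Of 14 neutrophil markers, 8 reached the floor with vehicle and 7 with IL-1α, and their summed log2 level was 109.9 and 108.2. Past 1.5-fold were 0 of them, against 0.875% of all genes, and Ly6g (6.30 and 6.00) was under the floor. Of 13 lymphocyte markers, Cd4 and Cd79b alone reached it, with Cd3e at 7.45 and 7.28. Of 13 dendritic cell markers, 4 reached it on each M2 array, led by the actin-bundling gene Fscn1 at 0.35, while Ccr7 (7.53 and 7.54), Flt3 (6.75 and 6.72) and Xcr1 (6.49 and 6.38) did not. Of 10 osteoclast markers, 8 reached it on each M2 array with summed levels of 104.8 and 105.2, the matrix protease Mmp9 being highest in difference at 0.55. Of 13 mast cell, basophil and eosinophil markers 2 reached it, and of 14 stromal and endothelial markers 6. Of 3 erythroid markers, 1 reached the floor with vehicle and 0 with IL-1α.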

How the data were processed

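Gene expression was measured on 1 single-colour Affymetrix array per group. The authors deposited log2 signals per probe set, and the submitters' processing notes name RMA and Affymetrix Expression Console; versions and settings are not given in the sources used here. The log base is not stated and was taken from the values (3.09 to 14.47). RMA in general sets arrays to a common distribution, which removes a global difference in RNA output and compresses dim probe sets. GEO's platform annotation gives 1 gene for 21789 of the 35556 rows, several for 1621 and none for 12146, and only the first kind was used. Symbols were updated through Entrez numbers to a RefSeq table of GRCm38.p6 (21698 matched), and probe sets of a gene were averaged.

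The M2 difference was IL-1α minus vehicle, called at 1.5-fold and 2-fold with at least 1 array at the floor. With 1 array per group there is no test, and precision is limited by their number. The members, the 40 gene lists (721 symbols, 647 measured) and the rules were chosen with earlier results of these data known. Named genes were all those past 1.5-fold (leaving out predicted genes, clones and small RNAs), the 10 lowest, the 3 on each side of the threshold, and list members. Python 3.11.15 with pandas 2.3.3 and statsmodels 0.14.6 was used, and the call rule was tested on simulated data. Alternatives were other floors, loess centring, a further quantile normalisation and the brightest probe set per gene.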

Additional observations from a re-analysis of the deposited data

Results flagged for a closer look

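For 4 named genes past 1.5-fold in M2, the M1 difference had the opposite sign by more than the standard deviation of all M1 differences (0.111): Ccl22 at -0.12, Cxcl10 at -0.17, Aldh1a2 at -0.25 and Slamf1 at -0.31 in M1. Each rests on 1 array a side, the difference between phenotypes was not tested, and Aldh1a2 was under the floor on both M1 arrays.

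Rows that the comparisons left out also held differences past 1.5-fold. Of 769 rows at the floor with several genes, 4 were higher in M2 and 0 lower, and in M1 0 were past it. Of 4356 rows at the floor with no gene, 54 were higher and 58 lower in M2, against 62 higher and 27 lower of 4702 in M1, so that the one-sided pattern of the named genes was not present in these rows. Their genes were not analysed here.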

How the results depend on the processing

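The count of 90 genes at least 1.5-fold higher in M2 was 109 without a floor, 90 after loess centring (83 shared), 75 after a further quantile normalisation (75 shared) and 89 with the brightest probe set per gene. It was 59 where the floor had to be reached with vehicle and 36 with a floor at the 75th percentile (9.635), both of which test fewer genes. The count at least 2-fold higher, 36, was 18 and 19 under those settings and 35 to 38 under the other planned ones. The count of genes 1.5-fold lower, 0, was 9 without a floor and 0 under the other planned settings. The M1 count past 1.5-fold in either direction, 6, was 12 without a floor and 3 with the higher floor. Settings added after seeing the data were a floor at 6.86, the olfactory receptor level (100 and 37 higher, 2 lower at 1.5-fold), and raising levels under the floor to it (77 and 27 higher). No called gene changed sign under any setting run. No paired analysis was possible because each group has 1 array and the labels carry no replicate numbers. The brightest probe set moved Socs3 to 1.40 and Cflar to 0.73, and took Orai2 to 0.53, under 1.5-fold. Signal near the floor limits the sizes of the 31 genes under it with vehicle.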
